A study of Mus musculus with 35 samples.

Results

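The genes described here encode the nuclear subunits of the mitochondrial oxidative phosphorylation system. They were taken by symbol from the annotation of the Affymetrix MG-U74Av2 array: Sdha, Sdhb, Sdhc and Sdhd, and every symbol starting with Ndufa, Ndufb, Ndufc, Ndufs, Ndufv, Uqcr, Cox4 to Cox8 or Atp5, without the Ndufaf assembly factors and without the muscle and brown fat isoforms Cox7a1, Cox8b and Cox6a2. Only probe sets annotated with a single symbol were used. The rule gave 90 probe sets of 66 genes, out of 8251 genes measured with a single symbol. Complex I was represented by 38 probe sets of 29 genes, complex II by 4 probe sets of 4 genes, complex III by 7 probe sets of 7 genes, complex IV by 19 probe sets of 12 genes and complex V by 22 probe sets of 14 genes. A gene with several probe sets is described by its brightest one. The rule takes members by symbol and uses no measured value, but it was set with earlier results of these data known.

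The respiratory chain passes electrons from NADH (complex I) and succinate (complex II) through ubiquinone, complex III and cytochrome c to complex IV, where oxygen is reduced, and complex V makes ATP from the proton gradient that complexes I, III and IV build. Most subunits are encoded in the nucleus, and the core subunits that the mitochondrial genome encodes are not part of the set. In adipocytes the chain serves fatty acid oxidation, lipid synthesis and, in brown and beige fat, heat production after uncoupling by Ucp1.

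Perigonadal fat of 22-week-old C57BL/6J mice was profiled on 35 arrays in 10 groups, 1 array per sample, and the labels do not say whether a sample was 1 animal or a pool. Of the untreated groups, lean wild-type females and males had 4 arrays each, Ay/+ females, which carry 1 copy of the yellow agouti allele, had 4, ob/ob females and ob/ob males, which lack functional leptin, had 4 each, and wild-type males made obese on the diet D12451 had 3. Pioglitazone, an agonist of the nuclear receptor PPARγ, was given at 10 mg/kg/day for 2 weeks to Ay/+ females (3 arrays, of which replicate 3 has no dose in its label), to ob/ob females (3 arrays) and to diet-induced obese males (4 arrays). CL316243, an agonist of the β3-adrenergic receptor, was given at 3 mg/kg/day for 2 weeks to ob/ob females (2 arrays). Leptin loss and the agouti allele act in the whole animal, so no group isolates fat cells. The p-values measure the spread between these samples, which may in part be technical.

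Values are MAS5 signals, scaled here so that every array had the same trimmed mean, and signals of different probe sets are not compared with each other. Differences are given as log2 fold changes of signal + 23, which understates changes of dim probe sets, with the standard error (SE) of limma's fit over all 35 arrays. A probe set was called when its Benjamini-Hochberg adjusted p over 12422 probe sets was under 0.05. Counts of called members in alternative fits stand without the share of all probe sets called there. A moved count may therefore follow calls over the whole array. In whole fat tissue, fewer cells of a type and less RNA per cell cannot be told apart.

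Of the 35 arrays, 22 were earlier and 13 later by the form of their scanner files. ob/ob males lay wholly among the later arrays, and the pioglitazone-treated females and the CL316243 group wholly among the earlier ones, so for these groups array period and group cannot be fully told apart. An earlier examination of these data had marked 4 arrays as standing apart: Ay/+ female replicate 1, ob/ob female replicate 4, Ay/+ pioglitazone replicate 3 and diet-induced obese pioglitazone replicate 1. The last had a Gapdh 3′ to 5′ probe ratio of 46.9, against at most 2.51 on the arrays of any other group. Adipocyte transcripts were present on every array: the summed scaled signal of 7 probe sets for adipocyte markers ran from 10873 on an ob/ob male array to 36696 on an Ay/+ female array. Ob/ob male replicate 1 carried a sum of 14309 for 3 male tract markers. Diet-induced obese pioglitazone replicate 2 carried 1819.6, and every other array at most 363. The part of these signals in the comparisons that use these 2 arrays was not tested.

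The promoters of some members are shown because subunits of all 5 complexes were called lower in both ob/ob and Ay/+ females than in lean females. Windows of 300 bases, from 250 bases before to 50 bases after the annotated start, were available from RefSeq (GRCm38.p6) for 54 of the 66 genes, 59 windows in all. Of these windows, 9 (15.3%) held GCGCATGC, the core of the site bound by NRF1, a factor known for driving respiratory chain genes, on either strand, against 2.71% of all 32851 windows. CCGGAAG, a core shared by ETS factors such as GABP, was in 15 windows (25.4%, against 8.86%). AAGGTCA, the core bound by estrogen-related receptors, was in 5 windows (8.47%, against 4.72%). The cyclic AMP response element TGACGTCA was in 2 windows (3.39%, against 1.79%), those of Ndufa10 and Ndufb2. GCGCATGC can overlap its own reverse complement, and a window with both was counted once. A match describes the letters of a window and does not show binding.

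The windows of 5 genes, picked with their values known, are given 5′ to 3′ on the gene's strand, with matches to the 4 motifs on either strand in capitals. Uqcr11 (complex III, chr10:80406772-80407071, minus strand) was called in the most comparisons. Uqcrc1 (complex III core protein, chr9:108936398-108936697, plus strand) and Sdhb (complex II iron-sulfur subunit, chr4:140961021-140961320, plus strand) hold the NRF1 core. Ndufb2 (complex I, chr6:39592315-39592614, plus strand) holds the cyclic AMP element and the estrogen-related receptor core, and Atp5k (complex V, chr5:108434350-108434649, minus strand) holds all but the cyclic AMP element.
Uqcr11: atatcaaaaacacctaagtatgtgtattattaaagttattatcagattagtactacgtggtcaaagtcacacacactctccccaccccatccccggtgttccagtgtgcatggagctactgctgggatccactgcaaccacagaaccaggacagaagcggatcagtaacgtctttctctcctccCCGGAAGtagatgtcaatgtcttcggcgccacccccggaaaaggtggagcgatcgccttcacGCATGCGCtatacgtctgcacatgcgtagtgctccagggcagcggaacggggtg
Uqcrc1: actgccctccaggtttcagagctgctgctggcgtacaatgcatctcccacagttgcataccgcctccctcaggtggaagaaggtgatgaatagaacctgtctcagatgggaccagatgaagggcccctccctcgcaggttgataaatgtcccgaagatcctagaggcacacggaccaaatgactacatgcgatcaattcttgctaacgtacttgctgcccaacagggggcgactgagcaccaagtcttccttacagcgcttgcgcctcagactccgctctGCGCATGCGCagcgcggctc
Sdhb: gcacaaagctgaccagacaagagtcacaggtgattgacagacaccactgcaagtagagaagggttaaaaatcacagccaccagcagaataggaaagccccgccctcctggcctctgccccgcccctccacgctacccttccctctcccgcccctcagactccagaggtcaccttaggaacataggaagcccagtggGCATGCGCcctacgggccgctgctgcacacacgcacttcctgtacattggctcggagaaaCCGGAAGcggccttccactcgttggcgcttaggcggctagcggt
Ndufb2: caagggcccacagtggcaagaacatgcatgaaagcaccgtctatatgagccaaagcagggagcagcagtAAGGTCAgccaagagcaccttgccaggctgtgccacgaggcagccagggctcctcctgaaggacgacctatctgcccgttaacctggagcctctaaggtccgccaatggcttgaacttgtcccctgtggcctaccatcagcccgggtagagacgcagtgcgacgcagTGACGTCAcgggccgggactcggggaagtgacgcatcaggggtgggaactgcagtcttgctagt
Atp5k: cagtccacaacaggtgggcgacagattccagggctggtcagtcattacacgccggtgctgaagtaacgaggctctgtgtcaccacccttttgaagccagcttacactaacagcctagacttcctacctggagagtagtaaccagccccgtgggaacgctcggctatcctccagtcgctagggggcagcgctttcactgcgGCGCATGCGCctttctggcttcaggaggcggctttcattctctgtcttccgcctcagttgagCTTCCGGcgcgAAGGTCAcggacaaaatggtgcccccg

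Subunits of all 5 complexes were lower in the fat of obese females than in lean females, were called lower for fewer members in ob/ob males, and for 1 member in diet-induced obese males. With pioglitazone members were called higher in each of the 3 obese models, as they were with CL316243 in ob/ob females. These treatment calls depended on the fit. With only the compared groups in it, no member was called for either drug in ob/ob females. Pioglitazone then gave 1 call in Ay/+ females and 1 in diet-induced obese males. The plot of gene-by-gene changes gives the log2 fold change of each gene in 12 comparisons, and the plot of shares sets the called members beside all probe sets. Uqcr11 was called in 8 of 12 comparisons, Sdha and Uqcrb in 7 each, and 13 genes in none.

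**Figure D1:**
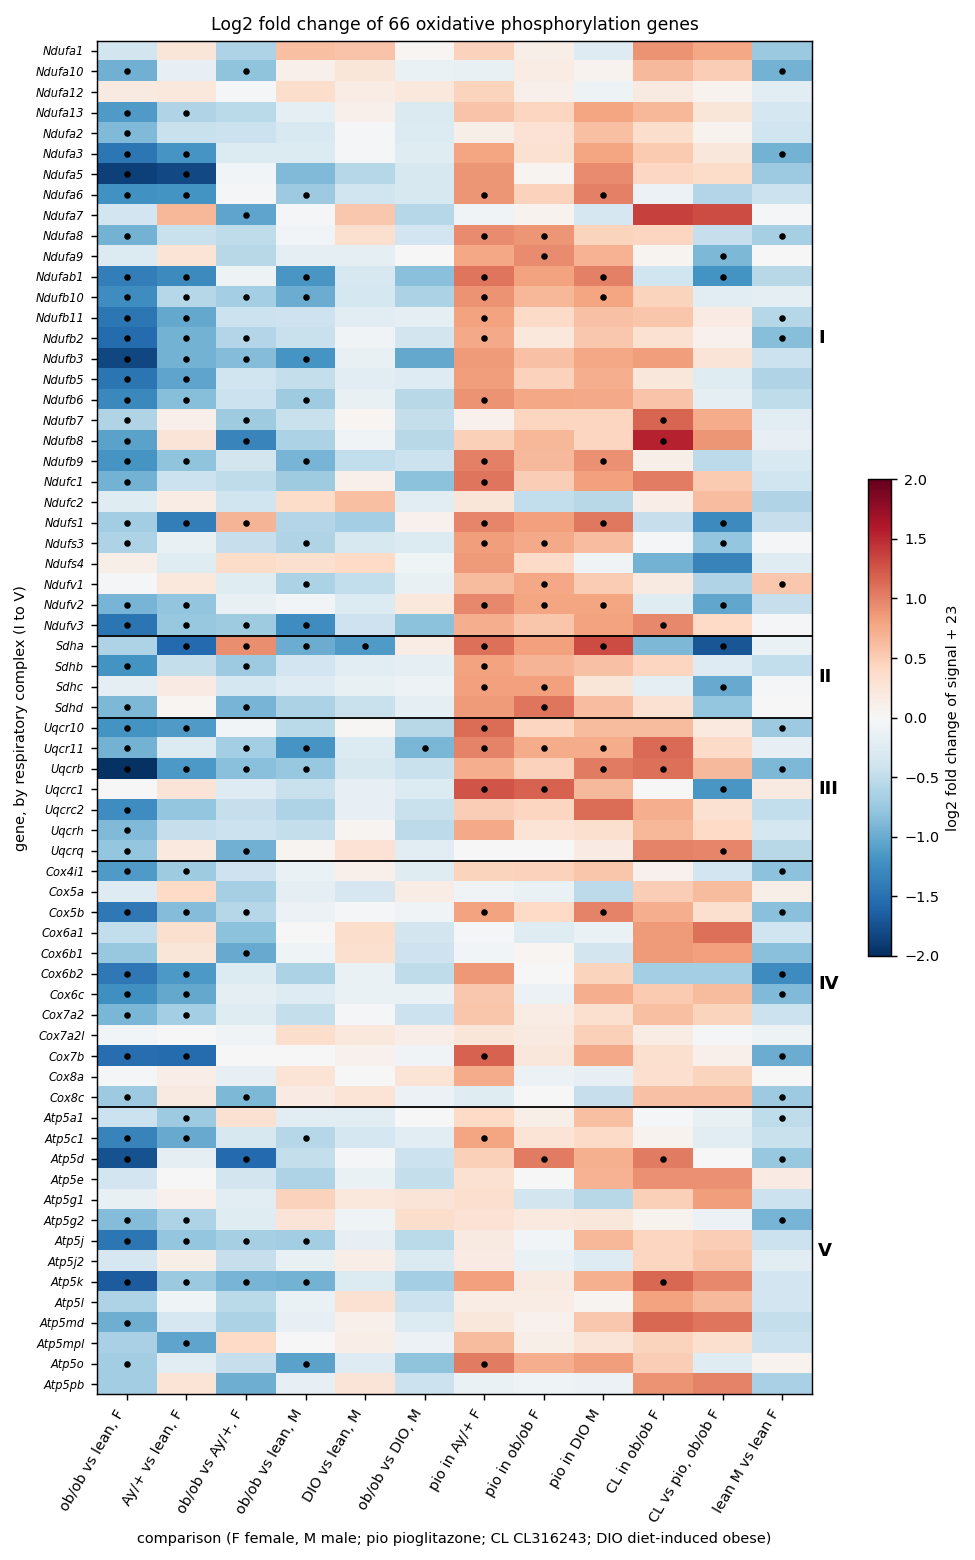
Log2 fold change (signal + 23) of each of the 66 genes (rows, by complex I to V) in 12 comparisons (columns), with a black dot where limma called the gene at an adjusted p under 0.05. Columns of obese against lean females are mostly blue with dots in every complex, and pioglitazone columns mostly red.

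**Figure D2:**
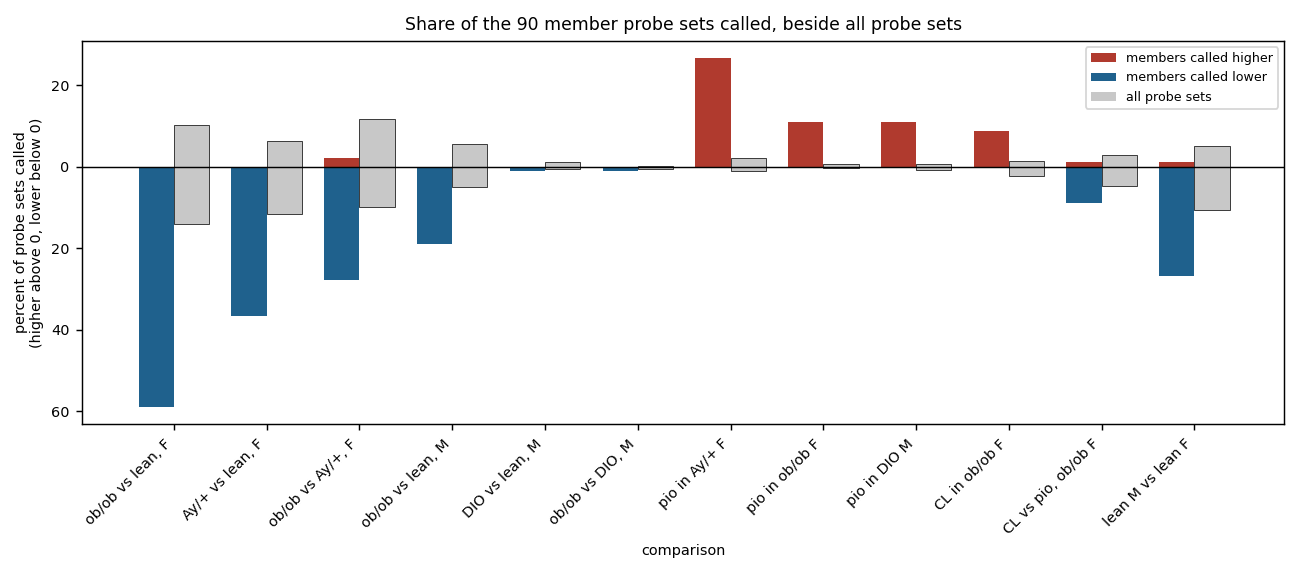
Percent of the 90 member probe sets called higher (red, above 0) or lower (blue, below 0) in each comparison, beside the percent of all 12422 probe sets called (grey). Members were called lower in 58.9% of cases in ob/ob against lean females, where 14% of all probe sets were.

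In ob/ob females, 53 of the 90 probe sets were called lower than in lean females and none higher, and 85 had a log2 fold change below 0. Among all probe sets, 14% were called lower and 10.3% higher. The median log2 fold change of the members was -0.88, beside -0.18 over all probe sets. Every complex took part: 26 of 38 probe sets fell in complex I, 2 of 4 in complex II, 6 of 7 in complex III, 8 of 19 in complex IV and 11 of 22 in complex V. After quantile normalization, which moved the median of all probe sets by 0.13, 52 members were lower and none higher. The medians of the complexes lay between -0.94 in complexes I and III and -0.75 in complexes IV and V.

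In complex III, Uqcrb, the ubiquinone-binding small subunit, had scaled signals of 8805, 10853, 6591 and 5626 in the lean and 1623, 1519, 1522 and 3723 in the ob/ob females. The groups did not overlap, although ob/ob replicate 4 lay well above its group mates, and the log2 fold change of -1.98 ± 0.24 (SE; adjusted p = 3.4e-07) was the lowest of the 90. Uqcr11, another small subunit, fell from 3219.6 ± 473 (SD, n = 4) to 1649.9 ± 80.9 (SD, n = 4), by 1.92 times. Its ob/ob arrays ran from 1581 to 1765, below every lean array. The core protein Uqcrc2 read 780.1, 816, 842 and 4858 in ob/ob and 2282, 4049, 2174 and 4253 in lean females. Replicate 4 exceeded all lean arrays here, the groups overlapped, and the call (log2 fold change -1.24 ± 0.37 SE, adjusted p = 0.0145) was lost when any of ob/ob replicates 1 to 3 was left out. The other core protein, Uqcrc1, did not pass the test, with group means of 1457 and 1413.

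Among complex I subunits, Ndufa5, an accessory subunit of the matrix arm, gave 4750.4, 5975, 4060.2 and 5905 in lean and 931, 1114, 977 and 3591 in ob/ob females. Ob/ob replicate 4 lay near the lean arrays without reaching them, and the log2 fold change was -1.87 ± 0.33 (SE; adjusted p = 0.0001). Ndufb3, an accessory subunit of the membrane arm, fell from 6013 ± 557 (SD, n = 4) to 1709 ± 324 (SD, n = 4), a log2 fold change of -1.82 ± 0.26 (SE; adjusted p = 4.5e-06) with no overlap of arrays. Of the catalytic core, Ndufs1, which carries iron-sulfur clusters, fell from 1002, 1244, 993 and 1068 to 603, 637, 749.6 and 632 (log2 fold change -0.70 ± 0.21 SE, adjusted p = 0.017). These groups did not overlap either, and the call was lost without ob/ob replicate 1. Ndufs3 changed by -0.61 (adjusted p = 0.0147), a call lost without lean replicate 3 or without ob/ob replicate 4. Ndufb8 changed by -1.07 (adjusted p = 0.00271). Ndufv1, the subunit that binds NADH and flavin, did not pass the test (2519.6 against 2579.9). The 15 probe sets of the distal membrane part, the Ndufb subunits, gave 11 lower calls, and the 10 probe sets of the NADH-oxidizing part gave 6.

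In complex II the iron-sulfur subunit Sdhb read 3180.2, 3425, 3113 and 2477 in lean and 1343, 1462, 1451 and 1011 in ob/ob females. No ob/ob array reached the lowest lean one, and the log2 fold change was -1.20 ± 0.19 (SE; adjusted p = 2.6e-05). The membrane anchor Sdhd changed by -0.89 (adjusted p = 0.00997). The flavoprotein Sdha, with a log2 fold change of -0.62, and the other anchor, Sdhc, did not pass the test.

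In complex IV, Cox5b, a matrix-side subunit of cytochrome c oxidase, gave 4249, 5606, 4985 and 3495 in lean and 1578, 1259.6, 1441 and 2599.6 in ob/ob females, with no overlap and a log2 fold change of -1.44 ± 0.20 (SE; adjusted p = 2e-06). Cox7b, a small membrane subunit, changed by -1.53 (adjusted p = 0.00026), Cox4i1 by -1.13 (adjusted p = 0.00072) and Cox7a2 by -0.92 (adjusted p = 0.00449). Cox6a1, Cox6b1, Cox5a, Cox8a and the supercomplex factor Cox7a2l were not called. In complex V, Atp5d, the delta subunit of the central stalk, read 755, 896, 1056 and 519 in lean and 127, 198, 266 and 332 in ob/ob females. The highest ob/ob array lay below the lowest lean one, a log2 fold change of -1.73 ± 0.24 (SE; adjusted p = 2.2e-06). Atp5k, the membrane subunit e, fell from 353 to 108 (log2 fold change -1.67 ± 0.26 SE, adjusted p = 1.5e-05). The c-ring gene Atp5g2 changed by -0.86 (adjusted p = 0.00057) and the peripheral stalk gene Atp5o by -0.69 (adjusted p = 0.0407), the latter lost when any 1 of lean replicates 1, 2 and 4 or ob/ob replicates 2, 3 and 4 was left out. Atp5a1, the alpha subunit of the catalytic head, did not pass the test (3098 against 4233), nor did Atp5g1.

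Markers of other cells moved with the same contrast. The summed signal of 11 macrophage probe sets was 1615 to 3471 on lean and 10934 to 19841 on ob/ob female arrays, with 7 of the 11 called higher. The sum of 8 brown or beige fat probe sets, which include Ucp1, Cidea, Cox7a1 and Cox8b, was 3819 to 8200.1 on lean and 424 to 507 on ob/ob arrays, with 7 called lower. Skeletal muscle markers summed to 2662 to 7785 and 1579 to 5726, 7 of 12 called lower, and adipocyte markers to 19207 to 27969 and 12303 to 23145, 1 of 7 called lower. The 3′ to 5′ ratios, a measure of RNA quality, also differed. For Gapdh they were 0.71, 0.81, 0.85 and 1.85 on ob/ob and 1.31 to 2.51 on lean arrays. For Actb they were 0.65, 0.16, 0.40 and 2.00 on ob/ob and 0.66 to 4.18 on lean arrays. Only ob/ob replicate 4 lay within the lean range of both. The part of these markers and ratios in the subunit changes was not tested. Among later arrays alone 10 members were called, and among earlier arrays alone 58.

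**Figure D3:**
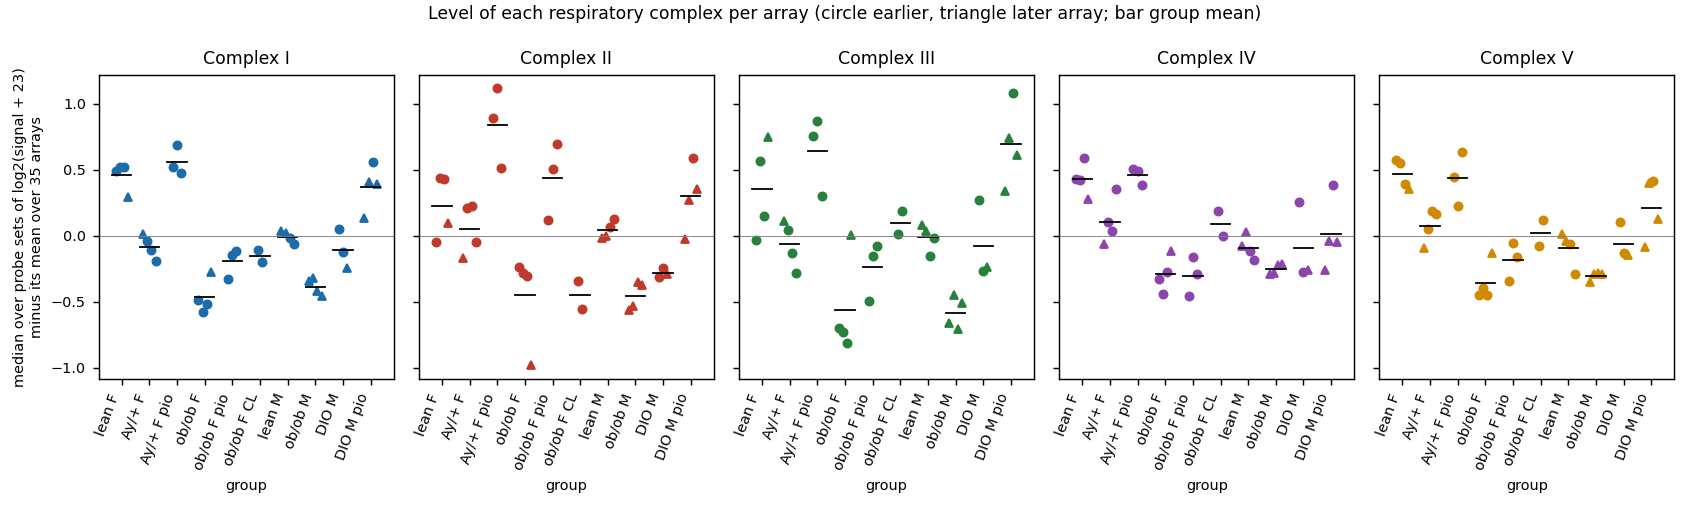
Level of each complex on each array (circles earlier, triangles later arrays, bars group means), as the median over the complex's probe sets of log2(signal + 23) minus each probe set's mean over 35 arrays. In complex I the ob/ob female arrays lie at -0.58 to -0.27 and the lean female arrays at 0.30 to 0.52; in complex II ob/ob replicate 4 lies at -0.98, apart from its group.

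Ay/+ females also had lower levels of many subunits than lean females. Of the 90 probe sets 33 were called lower than in lean females and none higher, where 11.5% of all probe sets were called lower and 6.26% higher. The members' median was -0.37, beside -0.06 for all. Complex I gave 15 lower calls, complex II 1, complex III 2, complex IV 7 and complex V 8. This comparison and that of ob/ob females share the lean arrays, so their values are set side by side and not counted against each other.

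Sdha, the catalytic flavoprotein of succinate dehydrogenase, read 266, 453, 321 and 579 in lean and 280.3, 94.9, 72.0 and 90.9 in Ay/+ females. Ay/+ replicate 1 lay within the lean range and the other 3 arrays far below it, a log2 fold change of -1.55 ± 0.28 (SE; adjusted p = 0.00021). Ndufs1 fell from the lean values given above to 533, 345, 432 and 312, with no overlap (log2 fold change -1.38 ± 0.21 SE, adjusted p = 3.2e-05). In ob/ob females the same changes were -0.62 for Sdha, not called, and -0.70 for Ndufs1. Ndufa5 read 3321, 1026, 1304 and 976 in Ay/+ females. Replicate 1 lay above its group mates and below the lean arrays (log2 fold change -1.81 ± 0.33 SE, adjusted p = 0.00029). In complex III, Uqcrb changed by -1.15 (adjusted p = 0.0013) and Uqcr10, a small subunit, by -1.14 (adjusted p = 0.00188). In complex IV, Cox7b changed by -1.53 (adjusted p = 0.00045) and Cox5b by -0.87 (adjusted p = 0.00201). Calls for Cox6b2 (-1.15, adjusted p = 0.0363), a testis-type isoform, and for Cox4i1 (-0.71, adjusted p = 0.0338) and Cox7a2 (-0.68, adjusted p = 0.0422) were lost without any 1 of lean replicates 1 to 3 or of Ay/+ replicates 2 to 4, and Cox7a2 also without lean replicate 4. In complex V, Atp5mpl changed by -1.05 (adjusted p = 0.0153), a call lost without lean replicate 4, Ay/+ replicate 2 or Ay/+ replicate 4, and Atp5c1, the gamma subunit of the central stalk, by -1.01 (adjusted p = 0.00017). Atp5a1 changed by -0.73 (adjusted p = 0.00247) and Atp5g2 by -0.62 (adjusted p = 0.0135), the latter lost without lean replicate 2. Macrophage markers summed to 5289 to 8585 on Ay/+ arrays, with 6 of 11 called higher, and brown or beige fat markers to 811 to 2079, with 6 of 8 called lower. Skeletal muscle markers summed to 1763 to 3545, against 2662 to 7785 on lean arrays, and 4 of 12 were called lower. Gapdh gave 3′ to 5′ ratios, which are read as a measure of RNA quality, of 0.74 to 1.02 on Ay/+ and 1.31 to 2.51 on lean arrays, without overlap. The part of these measures was not tested. In this comparison 35.2% of all calls were upward with the main scaling and 45.6% after quantile normalization, where 32 members were lower and none higher. With only the compared groups in the fit 12 probe sets were called, and with only later arrays 0.

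Between the obese female models, 25 members were lower and 2 higher in ob/ob than in Ay/+ females, beside 9.93% and 11.7% of all probe sets. The members' median was -0.46, against -0.10 for all. The exceptions that were higher in ob/ob females were Ndufs1 (log2 fold change 0.68 ± 0.21 SE, adjusted p = 0.0211) and Sdha (log2 fold change 0.93 ± 0.28 SE, adjusted p = 0.0162). Sdha read 302, 266, 273 and 159.6 in ob/ob females, overlapping the Ay/+ arrays only through Ay/+ replicate 1. Its call was lost without Ay/+ replicate 2, 3 or 4 or ob/ob replicate 1, and that of Ndufs1 without Ay/+ replicate 2 or 4 or ob/ob replicate 3. In the other direction, Ndufb8 read 2112, 3755, 2911 and 3933 in Ay/+ and 1267, 1279, 1221 and 1114 in ob/ob females. All 4 ob/ob arrays lay below all Ay/+ arrays (log2 fold change -1.32 ± 0.26 SE, adjusted p = 0.00059). Atp5d was likewise apart, with 448, 687, 804 and 894 in Ay/+ females (log2 fold change -1.56 ± 0.24 SE, adjusted p = 3.8e-05).

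Other members lower in ob/ob than in Ay/+ females were Ndufa7 in complex I (-1.05, adjusted p = 0.0345), Sdhd (-0.93, adjusted p = 0.00851) and Sdhb (-0.72, adjusted p = 0.00832) in complex II, Uqcrq (-0.96, adjusted p = 0.00531) and Uqcrb (-0.83, adjusted p = 0.0145) in complex III, Cox6b1 (2.00 times lower, adjusted p = 0.0371), Cox8c (-0.91, adjusted p = 0.00379) and Cox5b (-0.56, adjusted p = 0.0361) in complex IV, and Atp5k (-0.93, adjusted p = 0.0108) in complex V. Of these, Sdhd, Sdhb, Uqcrq and Cox8c kept their calls without any single array. The calls of Ndufa7 were lost without Ay/+ replicates 2, 3 or 4 or ob/ob replicates 1, 2 or 3, that of Uqcrb without Ay/+ replicate 2 or ob/ob replicates 1, 2 or 3, that of Atp5k without ob/ob replicate 1 or 2, that of Cox6b1 without Ay/+ replicate 2 or 4 or ob/ob replicates 1, 2 or 3, and that of Cox5b without any array but ob/ob replicate 4. The count of calls was 14 without Ay/+ replicate 2, 16 without Ay/+ replicate 4, and 16, 14 and 17 without ob/ob replicates 1, 2 and 3, and 2 with only these groups in the fit. Here too macrophage markers were higher in ob/ob females, with 6 of 11 probe sets called, brown or beige fat markers lower, with 3 of 8 called, and adipocyte markers lower, with 3 of 7 called. Of the 12 skeletal muscle probe sets 1 was higher and 1 lower. Their part was not tested. With scan day as a random block 15 members were called.

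Ob/ob males also had lower levels of subunits than lean males. Of the 90 probe sets 17 were lower than in lean males and none higher, where 4.96% of all probe sets were lower and 5.62% higher, and the median was -0.26 beside 0.06. Complex I gave 9 calls, complex II 1, complex III 2, complex V 5, and complex IV none of its 19 probe sets. The female and male ob/ob comparisons share no arrays, and 15 probe sets were lower in both, which is 28.3% of the 53 called in females and 88.2% of the 17 called in males. Over all probe sets called lower these shares were 14.1% and 39.8%. In females 58.9% of members and 14% of all probe sets were called lower, so these shares start from unlike bases. The female and male comparisons also used the same estimate of spread for each probe set, so their calls are not independent. The other 2 probe sets called in males were those of Sdha and Ndufv1.

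Uqcr11 read 2666, 3114, 3049 and 2639 in lean and 1354, 1181, 1191 and 1265 in ob/ob males. The groups lay wide apart, at 2.27 times lower in ob/ob (log2 fold change -1.18 ± 0.17 SE, adjusted p = 3.1e-06). Ndufv3, an accessory subunit of the NADH-oxidizing part, fell from 1557 to 645 (-1.24, adjusted p = 5e-05), and Ndufb3 from 4498 to 1963 (-1.18, adjusted p = 0.00166). Atp5o, the stalk subunit that confers oligomycin sensitivity, read 3175, 2429, 2566 and 2691 in lean and 1201, 1269, 1144 and 1517 in ob/ob males. Its arrays did not overlap (log2 fold change -1.07 ± 0.25 SE, adjusted p = 0.00281). Sdha read 458, 354, 281 and 341 in lean and 164, 162, 184 and 158 in ob/ob males, again without overlap (log2 fold change -0.99 ± 0.28 SE, adjusted p = 0.0147), and lost its call without lean replicate 1. Atp5k changed by -0.95 (adjusted p = 0.0119), lost without lean replicate 2, and Uqcrb by -0.76 (adjusted p = 0.0369), lost without any array but lean replicate 3. Ndufv1 (-0.63, adjusted p = 0.0203) was lost without lean replicate 3 or 4 or ob/ob replicate 1, 3 or 4, and Ndufs3 (-0.60, adjusted p = 0.0287) without any array but lean replicate 4. The count of called members was 9 without lean replicate 1, 9 without lean replicate 2, 9 without ob/ob replicate 3 and 10 without ob/ob replicate 4. Macrophage markers summed to 3839 to 5259 in lean and 20406 to 29219 in ob/ob males, with 7 of 11 called higher, and brown or beige fat markers to 625 to 1166 and 369 to 447, with 2 of 8 called lower. Adipocyte markers summed to 19114 to 22097 and 10873 to 14958, with 2 of 7 called lower. Skeletal muscle markers, at 1803 to 2287 and 892 to 1121, and endothelial markers, at 1555 to 2215 and 799 to 1119, were also apart, with 2 of 4 endothelial probe sets called lower. The 12 muscle probe sets did not fall together, with a median log2 fold change of 0.09. Myl1 was called lower (means of 1379 and 278, adjusted p = 7.8e-09), and Cox6a2 was called higher (1.77, adjusted p = 0.0118). The part of these markers was not tested. All ob/ob male arrays were later ones, and with only later arrays 20 members were called. A fit of only the compared groups gave 31.

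Diet-induced obese males differed from lean males in 1 member, Sdha, which was lower, while 0.628% of all probe sets were lower and 1.22% higher. Sdha read 91.8, 165 and 212 in the diet-induced obese males, all below the lowest lean array, a log2 fold change of -1.13 ± 0.30 (SE; adjusted p = 0.0385). That call was lost without lean replicate 1, 2 or 4 or diet-induced obese replicate 1 or 2, with quantile normalization and with only the compared groups in the fit. At an unadjusted p under 0.05 4 members were lower and none higher, and the share of all probe sets at that level was not computed. The median of the members was -0.04, beside 0.03 for all probe sets. Macrophage markers summed to 12477 to 17332 in these males, with 5 of 11 called higher than in lean males. Skeletal muscle markers, at 1174 to 1684, and endothelial markers, at 1004 to 1366, lay below every lean male array, with no probe set called, and their part was not tested. Compared with diet-induced obese males, ob/ob males were lower in 1 member, Uqcr11 (log2 fold change -0.92 ± 0.18 SE, adjusted p = 0.00488), where 0.62% of all probe sets were lower. Uqcr11 read 3229, 2144 and 1930.0 in the diet-induced obese group, above every ob/ob male array, and its call was lost without diet-induced obese replicate 1. Without diet-induced obese replicate 3, 2 members were called. The members' median in this comparison was -0.24, beside 0.03, and 16 members had an unadjusted p under 0.05 in that direction. Here too the share of all probe sets at that level was not computed. The sums of adipocyte, brown or beige fat and skeletal muscle markers were lower on every ob/ob than on every diet-induced obese array, and that of macrophage markers higher, with 1, 0, 1 and 1 probe sets called. Their part was not tested.

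Among lean mice the sexes differed. In males 24 members were lower than in females and 1 was higher, beside 10.5% and 5.22% of all probe sets, with a median of -0.44 for the members and -0.20 for all. Complex IV gave 7 of its 19 probe sets, complex I 8 of 38, complex V 7 of 22, complex III 2 of 7 and complex II none. Atp5g2, a c-ring gene, read 636, 862, 525 and 534 in lean females and 285, 327, 358 and 307 in lean males. No male array reached a female one (log2 fold change -0.93 ± 0.18 SE, adjusted p = 0.00072). Cox5b read 2886, 2919, 2069.9 and 2312 in lean males, below all 4 lean females (log2 fold change -0.84 ± 0.20 SE, adjusted p = 0.00474). The 2 called genes with the widest gap in each complex were, besides Atp5g2, Ndufa10 (-0.95, adjusted p = 0.00369) and Ndufa3 (-0.94, adjusted p = 0.00612) in complex I, Uqcrb (-0.91, adjusted p = 0.0127) and Uqcr10 (-0.73, adjusted p = 0.046) in complex III, Cox6b2 (-1.26, adjusted p = 0.0255) and Cox7b (-0.99, adjusted p = 0.0211) in complex IV and Atp5d (-0.77, adjusted p = 0.0272) in complex V. Cox4i1 changed by -0.82 (adjusted p = 0.0183) and Atp5a1 by -0.50 (adjusted p = 0.0385). Atp5g2, Cox5b, Ndufa10 and Ndufa3 were called without any single array. The call of Uqcrb was lost without lean female replicate 1, that of Cox7b without lean female replicate 1 or lean male replicates 3 or 4, that of Cox4i1 without lean female replicate 1 or lean male replicate 3 and that of Cox6b2 without lean female replicates 1, 2 or 3 or lean male replicate 3. Atp5d lost it without lean female replicates 1, 2 or 3 or lean male replicates 1 or 4, Atp5a1 without lean female replicates 1, 2 or 4 or lean male replicates 2, 3 or 4, and Uqcr10 without any 1 of the 8 arrays. Ndufv1 was the single member higher in males (3105, 3595, 3745 and 4240.5 against 1908, 2349.8, 2393 and 3669 in females). Its arrays overlapped, and the call (log2 fold change 0.54 ± 0.18 SE, adjusted p = 0.0432) was lost without lean female replicates 1, 2 or 3 or lean male replicates 2, 3 or 4. The count of called members was 8 without lean female replicate 1, 14 without lean female replicate 3, and 16 and 14 without lean male replicates 3 and 4. In this comparison 33.2% of all calls were upward with the main scaling and 55.5% after quantile normalization, which moved the median of all probe sets by 0.19. With that scaling 23 members were lower and none higher. Among later arrays alone the count of called members was 0, and with scan day as a random block 14. Brown or beige fat markers, at 625 to 1166 in males and 3819 to 8200.1 in females, were lower in males in 7 of 8 probe sets. Skeletal muscle markers, at 1803 to 2287 and 2662 to 7785, were lower in 6 of 12, and macrophage markers higher in 5 of 11. Their part was not tested.

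The ob/ob effect itself was tested between the sexes. The difference, males minus females, was above 0 at an adjusted p under 0.05 for 12 members and below 0 for none, where 2.84% of all probe sets were called in each direction. The median difference was 0.58 for the members and 0.23 for all. After quantile normalization, which moved the median of all by -0.19, 14 members were called above 0, and 39.9% of all calls were upward. Cox5b was 2.71 times lower in ob/ob than in lean females, while its means in ob/ob and lean males were 2337 and 2547. The difference of the log2 fold changes was 1.33 ± 0.28 (SE; adjusted p = 0.00339). Cox7b, also in complex IV, gave 1.54 (adjusted p = 0.0222), with means of 1727 in ob/ob and 1731 in lean males. Called as well were Ndufa3 (1.16, adjusted p = 0.0275) and Ndufb2 (1.10, adjusted p = 0.0109) in complex I, Uqcrb (1.22, adjusted p = 0.0312) in complex III, and Atp5d (1.26, adjusted p = 0.0214) and Atp5g2 (1.12, adjusted p = 0.00612) in complex V, besides Ndufa10, Ndufa13, Ndufb11 and Ndufv2. Cox5b, Atp5g2 and Ndufb2 were called without any single array, but not with only later arrays. All 4 ob/ob male arrays were later ones, while 3 of the 4 ob/ob female arrays were earlier ones. With only later arrays the count of called members fell from 12 to 1, and with scan day as a random block to 3, where Cox7b, Atp5d, Uqcrb and Ndufa3 were among the calls lost. Atp5d lost its call without lean female replicate 3 or untreated ob/ob female replicate 1 or lean male replicate 4, Cox7b without untreated ob/ob female replicates 1, 2 or 3, Ndufa3 without untreated ob/ob female replicates 1, 2 or 3 or lean male replicate 3 or ob/ob male replicate 2, and Uqcrb without lean female replicates 1 or 2 or untreated ob/ob female replicates 1, 2 or 3 or lean male replicates 3 or 4 or ob/ob male replicates 3 or 4. Lean females were the group with the highest brown or beige fat markers among untreated mice, and those markers showed a difference in the same direction in 5 of 8 probe sets. Of 12 skeletal muscle probe sets 3 also differed in that direction, and of 7 adipocyte probe sets 2 in the opposite one. The part of these markers was not tested. Without single arrays the count moved most with ob/ob female replicate 4, to 25, with lean female replicate 4, to 21, with ob/ob female replicates 1 and 2, to 6 and 7, and with lean male replicate 4, to 7.

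**Figure D4:**
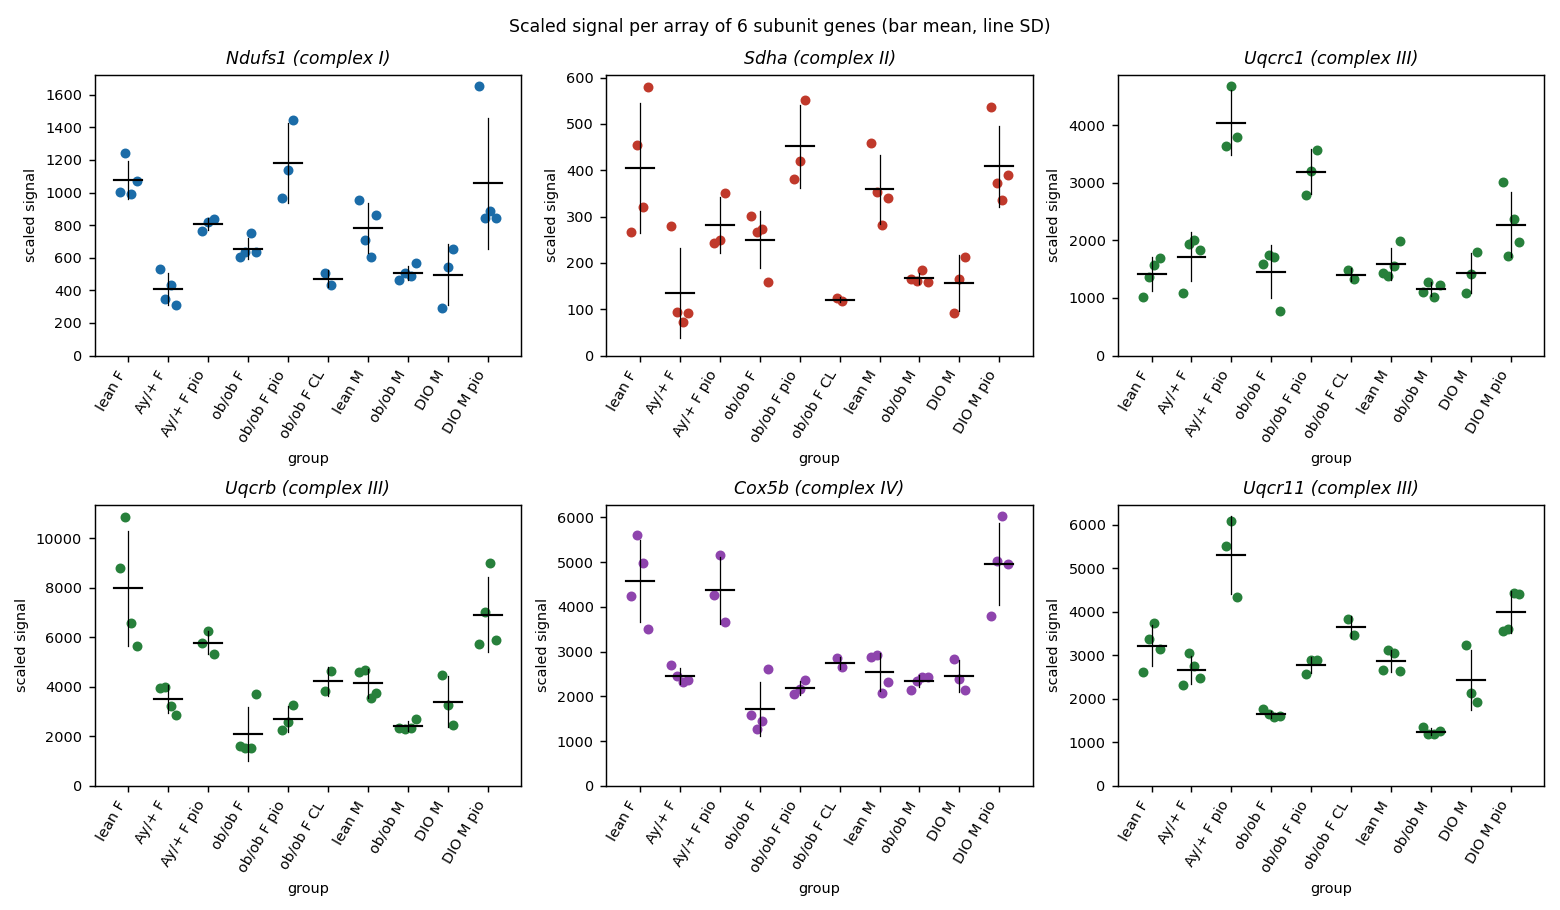
Scaled MAS5 signal of 6 genes (Ndufs1, Sdha, Uqcrc1, Uqcrb, Cox5b and Uqcr11) on each array (points) in the 10 groups, with group mean (bar) and SD (line). Uqcrc1 lies highest in the pioglitazone-treated females, with means of 4046 in Ay/+ and 3194 in ob/ob mice, against 1404 with CL316243.

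Pioglitazone raised oxidative phosphorylation subunits in Ay/+ females. Of the 90 probe sets 24 were called higher and none lower, where 2.13% of all probe sets were higher and 0.91% lower, and the median was 0.51 beside 0.05 for all. Complex I gave 12 calls of 38, complex II 3 of 4, complex III 3 of 7, complex IV 2 of 19 and complex V 4 of 22. Uqcrc1, a core protein of complex III, read 1085, 1943, 2011 and 1841 in untreated and 3644, 4689 and 3806 in treated Ay/+ females. Every treated array lay above every untreated one, by 2.39 times (log2 fold change 1.25 ± 0.25 SE, adjusted p = 0.00208). Uqcr11 rose from 2318, 3064, 2764 and 2484 to 5511, 6089 and 4329.6. These arrays did not overlap either (log2 fold change 0.99 ± 0.18 SE, adjusted p = 0.00076).

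In complex II, Sdha read 243, 250.4 and 351 in treated Ay/+ females. It overlapped untreated replicate 1 and exceeded the other 3 (log2 fold change 1.10 ± 0.30 SE, adjusted p = 0.0338). Sdhc changed by 0.82 (adjusted p = 0.024) and Sdhb by 0.81 (adjusted p = 0.0232). In complex I, Ndufs1 rose to 767, 818 and 839, above every untreated array (log2 fold change 0.98 ± 0.23 SE, adjusted p = 0.0114). Ndufab1, the mitochondrial acyl carrier protein, changed by 1.07 (adjusted p = 0.013), Ndufc1 by 1.07 (adjusted p = 0.0287) and Ndufs3 by 0.84 (adjusted p = 0.0118). In complexes III to V the further calls with the widest changes were Uqcr10 (1.12, adjusted p = 0.0153), Cox7b (1.17, adjusted p = 0.0311), Cox5b (0.81, adjusted p = 0.0242), Atp5o (1.03, adjusted p = 0.0242) and Atp5c1 (0.78, adjusted p = 0.0155). Uqcrc1, Uqcr11 and Ndufv2 were called without any single array. Sdha and Cox7b lost theirs without any of the 6 arrays other than untreated replicate 1. Ndufs3 lost it without treated Ay/+ replicate 3, Ndufs1 without untreated Ay/+ replicate 4 or treated Ay/+ replicate 3, Sdhb without untreated Ay/+ replicate 4 or treated Ay/+ replicates 1 or 2, Sdhc without untreated Ay/+ replicates 1 or 4 or treated Ay/+ replicates 2 or 3, Uqcr10 without untreated Ay/+ replicates 3 or 4 or treated Ay/+ replicates 1 or 2 and Atp5c1 without untreated Ay/+ replicates 2 or 3 or treated Ay/+ replicate 2. Ndufab1 lost it without untreated Ay/+ replicates 2 or 3 or treated Ay/+ replicates 1 or 2, Atp5o without untreated Ay/+ replicates 2 or 4 or treated Ay/+ replicates 1 or 2, Cox5b without untreated Ay/+ replicates 2, 3 or 4 or treated Ay/+ replicates 1 or 2 and Ndufc1 without untreated Ay/+ replicates 2 or 4 or treated Ay/+ replicates 1, 2 or 3. The count of called members was 15 and 11 without untreated replicates 2 and 4 and 12 and 9 without treated replicates 1 and 2. With only the compared groups in the fit it was 1, and without the 4 arrays that stood apart 41. Brown or beige fat markers summed to 3825 to 11738 in treated mice, 4 of 8 called higher, among them 1 of those of Ucp1 at 4.15 (adjusted p = 9.5e-06). The other Ucp1 probe set was not called, at 1.55 (adjusted p = 0.0548). Macrophage markers summed to 3584 to 4577 in treated and 5289 to 8585 in untreated mice, with no probe set called. The part of these markers was not tested.

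In ob/ob females pioglitazone raised 10 members and lowered none, beside 0.733% and 0.33% of all probe sets, with a median of 0.21 for the members and -0.05 for all. Uqcrc1 read 1587, 1752, 1707 and 781 untreated and 2793, 3209.9 and 3581 treated. The groups were separate (log2 fold change 1.18 ± 0.25 SE, adjusted p = 0.00877). The other called genes were Ndufa9 (0.94, adjusted p = 0.041), Ndufa8 (0.89, adjusted p = 0.045), Ndufv2, Ndufv1 (0.78, adjusted p = 0.0439) and Ndufs3 (0.76, adjusted p = 0.0485) in complex I, Sdhd (1.07, adjusted p = 0.0428) and Sdhc (0.82, adjusted p = 0.0459) in complex II, Uqcr11 (0.75, adjusted p = 0.0296) in complex III and Atp5d (1.05, adjusted p = 0.0337) in complex V. Complex IV gave none, with a median of -0.01. Ndufv1 read 3032, 2746, 2607 and 1694 untreated and 3817, 4648 and 4308 treated, without overlap. All treated arrays were scanned on 1 day, and with scan day as a random block 1 member was called. Counts without single arrays were 3 and 3 without untreated replicates 3 and 4 and 2, 0 and 0 without treated replicates 1, 2 and 3, so that no call held in every case. With only the compared groups in the fit the count was 0, with the replicate number as a block 1, and with only earlier arrays 6. Brown or beige fat markers summed to 2666 to 4506, 4 of 8 called higher, and skeletal muscle markers to 1151 to 1572 against 1579 to 5726 untreated, 1 of 12 called lower. Their part was not tested.

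In diet-induced obese males pioglitazone raised 10 members and lowered none, where 0.757% of all probe sets were higher and 0.66% lower, and the median was 0.44 beside -0.08. Sdha read 536, 372, 336 and 389.7 in treated males. All 4 exceeded the untreated values given above, by 2.47 times (log2 fold change 1.31 ± 0.30 SE, adjusted p = 0.0132). Ndufs1 read 292, 545 and 653 untreated and 1656, 841, 887 and 841 treated, with replicate 1 far above the other treated arrays but no overlap of the groups (log2 fold change 1.06 ± 0.23 SE, adjusted p = 0.00786). Cox5b rose from 2831, 2396 and 2138 to 3801, 5034, 6034 and 4953 (log2 fold change 1.00 ± 0.21 SE, adjusted p = 0.00604). Called also were Ndufa6 (1.01, adjusted p = 0.0181), Ndufab1, Ndufb9, Ndufb10 and Ndufv2 in complex I and Uqcrb (1.04, adjusted p = 0.0311) and Uqcr11 (0.74, adjusted p = 0.0215) in complex III, and none in complex V. The Actb 3′ to 5′ ratios were 0.869 to 3.27 on treated and 0.734 to 0.825 on untreated arrays, without overlap. Treated replicate 1 held the highest Sdha and Ndufs1 values, the Gapdh 3′ to 5′ ratio of 46.9 and the Actb ratio of 3.27. Sdha and Ndufs1 lost their calls without that array or untreated replicate 1, Cox5b without untreated replicate 3, Ndufa6 without untreated replicate 1 or 3 or treated replicate 3 or 4, Uqcrb without untreated replicates 2 or 3 or treated replicates 2 or 3 and Uqcr11 without untreated replicates 2 or 3 or treated replicates 3 or 4. The count was 6 and 2 without untreated replicates 2 and 3, 5 and 5 without treated replicates 3 and 4, and 30 without the arrays that stood apart. With only the compared groups in the fit it was 1, and with only earlier or only later arrays 3 each. Brown or beige fat markers summed to 2544 to 5070.1 in treated and 749 to 1019 in untreated males, 4 of 8 called higher. Skeletal muscle markers were also apart, at 1747 to 2728 and 1174 to 1684, with no probe set called. The part of RNA quality and of these markers was not tested.

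The 3 pioglitazone comparisons share no arrays, and their calls were counted against each other. All 3 used the same estimate of spread for each probe set, so their calls are not independent. Of the 24 probe sets called in Ay/+ females and the 10 called in diet-induced obese males, 9 were shared, which is 37.5% and 90% of each list. Over all probe sets, 25.8% and 72.3% of the calls in these comparisons were shared. Ay/+ and ob/ob females shared 6 (25% of 24 and 60% of 10), beside 23.5% and 68.1% over all probe sets. The 10 of ob/ob females and the 10 of males on the diet had 2 in common (20% of each), beside 46.2% and 44.7% over all. In all 3 comparisons a larger share of members than of all probe sets was called, so these overlaps start from unlike bases. The brightest probe set of Ndufv2, an iron-sulfur subunit of complex I, and that of Uqcr11 were called in all 3. The drug effect on that of Ndufv2 was 0.96 in Ay/+ females (adjusted p = 0.00269), 0.79 in ob/ob females (adjusted p = 0.0337) and 0.79 in diet-induced obese males (adjusted p = 0.0262). The other probe set of Ndufv2 was called in none, at 0.36, 0.06 and -0.02 in the same order. In ob/ob females the call was lost without untreated replicate 4 or any treated array, and in diet-induced obese males without untreated replicates 1 or 3 or treated replicates 3 or 4. The difference of the pioglitazone effect between ob/ob and Ay/+ females passed limma's test for no member. Of all probe sets 0.0161% were called higher and 0.00805% lower. At an unadjusted p under 0.05 2 members were below 0, and the share of all probe sets at that level was not computed. The members' median difference was -0.25, beside -0.09.

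CL316243 raised 8 members in ob/ob females and lowered none, beside 1.55% and 2.18% of all probe sets. The median was 0.42 for the members and -0.0019 for all. Ndufb8, an accessory subunit of the membrane arm, read 1267, 1279, 1221 and 1114 untreated and 4174 and 3084 with CL316243. Both treated arrays lay far above the untreated ones, by 2.91 times (log2 fold change 1.54 ± 0.31 SE, adjusted p = 0.00644). Uqcr11 read 1765, 1643, 1581 and 1610.3 untreated and 3832 and 3469 treated, also apart (log2 fold change 1.13 ± 0.20 SE, adjusted p = 0.0029). Ndufb7 changed by 1.16 (adjusted p = 0.0101), Ndufv3 by 0.95 (adjusted p = 0.0315), Uqcrb by 1.11 (adjusted p = 0.0341), Atp5k by 1.15 (adjusted p = 0.0378) and Atp5d by 1.04 (adjusted p = 0.0402). The last call was that of a dimmer probe set of Ndufb2. Complexes II and IV gave no call, and Sdha stood at 124 and 117, below all 4 untreated arrays, with a log2 fold change of -0.90 (adjusted p = 0.136). With a single treated array left in the fit no member was called. Without untreated replicates 1, 2 and 3 in turn the count was 3 each time, with Ndufv3, Uqcrb, Atp5k and Atp5d among the calls lost, and without replicate 4 it was 20. In this comparison 41.6% of all calls were upward with the main scaling and 54.6% after quantile normalization, where 6 members were higher and none lower. In a fit of only the compared groups no member was called. With scan day as a random block the count was 2, and both treated arrays were scanned on 1 day. Brown or beige fat markers summed to 1462 to 1828, 2 of 8 called higher. Adipocyte markers summed to 25625 to 30833 with CL316243, above all untreated arrays at 12303 to 23145, and 1 of 7 probe sets was called higher, 1 of those of Lpl, lipoprotein lipase, at 1.29 (adjusted p = 0.0277). Of 12 skeletal muscle probe sets 1 was called lower. The Actb 3′ to 5′ ratios were 1.53 and 1.52 with CL316243 and 0.65, 0.16, 0.40 and 2.00 untreated. For Gapdh they were 1.00 and 1.11 with CL316243 and 0.71, 0.81, 0.85 and 1.85 untreated. Only untreated replicate 4 lay above the treated arrays in these ratios. What part these markers and ratios have was not tested.

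The treatments were then compared directly in ob/ob females, at the doses given above, which differ. With CL316243, 8 members were lower and 1 higher than with pioglitazone, where 4.69% of all probe sets were lower and 2.91% higher. The lower members were Sdha, Sdhc, Ndufs1, Ndufab1, Ndufv2, Ndufa9, Ndufs3 and Uqcrc1, and the higher one Uqcrq. Sdha read 382, 421 and 552 with pioglitazone and 124 and 117 with CL316243. The gap was 3.27 times (log2 fold change -1.71 ± 0.36 SE, adjusted p = 0.00232), and its call held without any single array. Ndufs1 read 965, 1136 and 1448 and 507 and 433 (log2 fold change -1.28 ± 0.28 SE, adjusted p = 0.00311), a call lost without CL316243 replicate 2. Uqcrc1 read 2793, 3209.9 and 3581 and 1483 and 1325. Its arrays did not overlap (log2 fold change -1.17 ± 0.30 SE, adjusted p = 0.0117).

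Of the remaining lower members, Sdhc changed by -1.01 (adjusted p = 0.0107), Ndufab1 by -1.20 (adjusted p = 0.0116), Ndufv2 by -1.04 (adjusted p = 0.00448), Ndufa9 by -0.89 (adjusted p = 0.0476) and Ndufs3 by -0.78 (adjusted p = 0.0368). Uqcrq, a small subunit of complex III, read 7447 and 6492 with CL316243 and 3222, 4012 and 3340.4 with pioglitazone (log2 fold change 0.98 ± 0.31 SE, adjusted p = 0.0492). Uqcrc1 and Sdhc lost their calls without pioglitazone replicate 3 or CL316243 replicates 1 or 2, Ndufab1 without CL316243 replicates 1 or 2, Ndufv2 without CL316243 replicate 2, and Ndufa9, Ndufs3 and Uqcrq without any of the 5 arrays. Over the whole set, 59 of 90 probe sets were above 0 and 31 below, with a median of 0.21 beside 0.07. By complex the medians were 0.13 in I, -0.89 in II, 0.39 in III, 0.33 in IV and 0.22 in V, and all 4 probe sets of complex II were below 0. Counts were 4 without pioglitazone replicate 3 and 3 and 2 without CL316243 replicates 1 and 2. The groups were scanned on separate days, 1 each, so scan day and treatment cannot be told apart. With scan day as a random block the count was 4, and with only the compared groups 23. Of 8 brown or beige fat probe sets, with sums of 1462 to 1828 with CL316243 against 2666 to 4506, 2 were called lower. These were 1 of those of Ucp1 (-3.92, adjusted p = 0.00033) and that of Cidea (-2.07, adjusted p = 0.00401). The other Ucp1 probe set was not called (-0.79, adjusted p = 0.422), and those of Cox8b lay above 0 (0.21 and 0.15, not called). Adipocyte markers summed to 25625 to 30833 against 15402 to 16476, with the same Lpl probe set called higher at 1.54 (adjusted p = 0.00541), and endothelial markers to 959 to 1093 against 550.0 to 819, with none called. The 3′ to 5′ ratios did not overlap either, at 1.52 to 1.53 against 0.11 to 0.56 for Actb and 1.00 to 1.11 against 0.74 to 0.86 for Gapdh. The part of these measures was not tested.

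**Figure D5:**
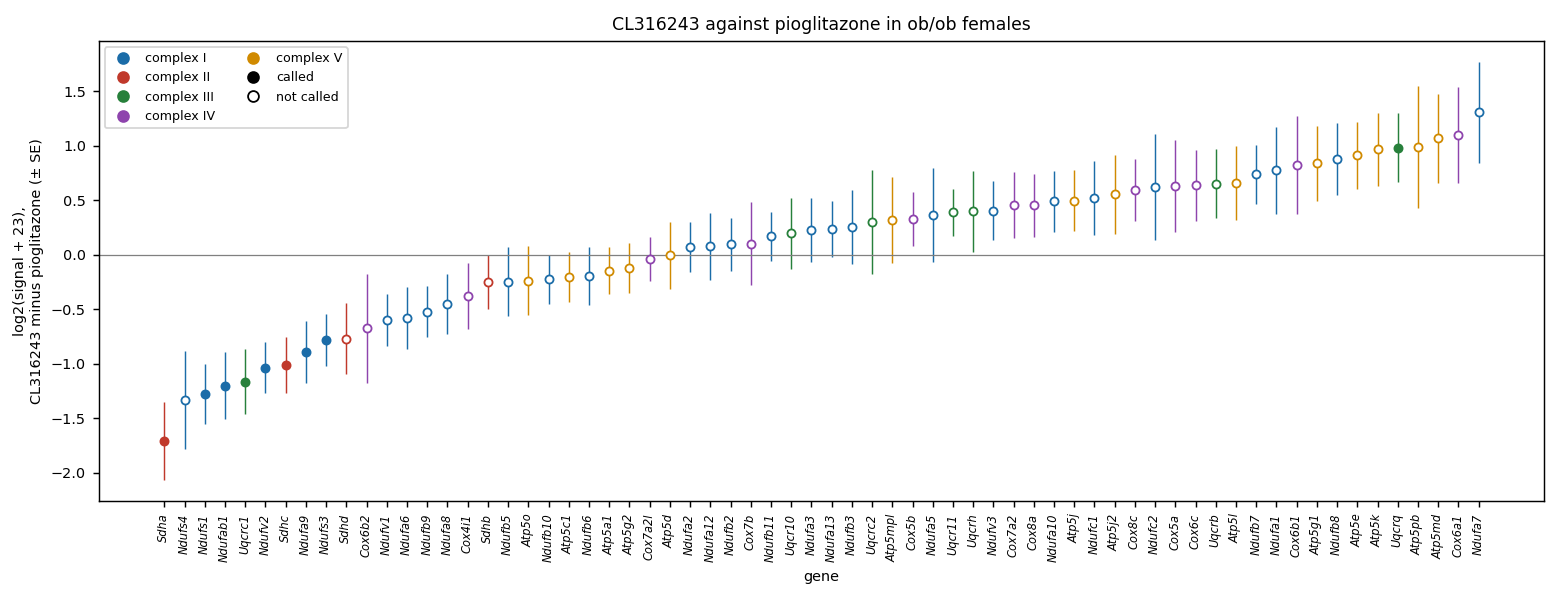
Log2 fold change (signal + 23, point ± SE) of each of the 66 genes in ob/ob females, CL316243 minus pioglitazone, in rising order and coloured by complex, filled where called. Sdha lies lowest at -1.71, and Uqcrq, the called gene above 0, lies at 0.98.

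Other mitochondrial genes were followed through lists of names, and the genes named from them were picked with their values known. Shares in parentheses are of the list's probe sets. Over all probe sets 14% were called lower in ob/ob females, 11.5% in Ay/+ females, 4.96% in ob/ob males and 4.69% with CL316243 against pioglitazone. Pioglitazone raised 2.13% of all in Ay/+ females, 0.733% in ob/ob females and 0.757% in diet-induced obese males. Of 76 probe sets for mitochondrial ribosomal proteins, which translate the subunits encoded in the organelle, 34 (44.7%) were lower in ob/ob than in lean females, 19 (25%) lower and 1 higher in Ay/+ females, and 3 (3.95%) lower in ob/ob males, the last a share below that of all probe sets. Their median in ob/ob females was -0.56. Pioglitazone raised 14 (18.4%) of them in Ay/+ females, 1 (1.32%) in ob/ob females and 1 (1.32%) in diet-induced obese males. Of 19 probe sets for protein import into mitochondria, 6 (31.6%) were lower in ob/ob females, 7 (36.8%) lower and 1 higher in Ay/+ females, and 8 (42.1%) lower with CL316243 against pioglitazone, while 5 (26.3%) were higher with pioglitazone in Ay/+ females. Hspe1, the small mitochondrial chaperonin, changed by -1.69 (adjusted p = 8e-07) in ob/ob and -1.56 (adjusted p = 7.7e-06) in Ay/+ females. Of 21 probe sets for assembly factors of the complexes, 7 (33.3%) were lower and 1 higher in ob/ob females, 4 (19%) lower and 2 higher in Ay/+ females, and 2 (9.52%) were higher with pioglitazone in Ay/+ females.

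Of 19 probe sets for electron carriers and their enzymes, 7 (36.8%) were lower and 1 higher in ob/ob females. Pioglitazone raised 6 (31.6%) in Ay/+ females, 5 (26.3%) in ob/ob females and 4 (21.1%) in diet-induced obese males, and 8 (42.1%) were lower with CL316243 than with pioglitazone. Cycs, cytochrome c, changed by -1.12 (adjusted p = 0.00013) in ob/ob females and by 1.49 (adjusted p = 3.6e-05), 1.13 (adjusted p = 0.00345) and 1.15 (adjusted p = 0.0021) with pioglitazone in Ay/+ females, in ob/ob females and in males on the diet, in that order. Gpd2, the mitochondrial glycerophosphate dehydrogenase that feeds electrons to ubiquinone, was lower in ob/ob females (-2.66, adjusted p = 1.4e-08), Ay/+ females (-2.67, adjusted p = 3.2e-08), ob/ob males (-1.48, adjusted p = 0.00023) and diet-induced obese males (-1.47, adjusted p = 0.00337). Of 28 probe sets for regulators of mitochondrial biogenesis, 3 (10.7%) were lower in ob/ob females, 4 (14.3%) lower and 1 higher in Ay/+ females, and 1 (3.57%) was higher with pioglitazone in Ay/+ females. The share called lower was below that of all probe sets in ob/ob females and near it in Ay/+ females. The one that rose was the dimmer of a pair of probe sets for Esrra, the estrogen-related receptor alpha, at 1.80 (adjusted p = 0.00059), while the brighter one was not called at 0.76 (adjusted p = 0.176). The pair also disagreed in untreated Ay/+ against lean females, at -1.65 (adjusted p = 0.00024) and 0.09 (adjusted p = 0.869), so no direction is given for Esrra. The 4 probe sets of the excluded isoforms Cox7a1, Cox8b and Cox6a2 were all lower in ob/ob females (median -2.66), and pioglitazone raised 2 of them in each model. In ob/ob males 1 of the 4 was higher, that of Cox6a2 (1.77, adjusted p = 0.0118), and 1 was lower. Of 14 probe sets for nucleotide, phosphate and proton carriers, 4 (28.6%) were lower in ob/ob females and 5 (35.7%) lower and 1 higher in Ay/+ females. In ob/ob males 3 (21.4%) of these carriers were higher and 1 (7.14%) lower, beside 5.62% and 4.96% of all probe sets.

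Not every member could be read equally well. In 8 probe sets no group mean reached 46 scaled units, which is 2 times the pseudocount, and 24 probe sets were called in none of the 12 comparisons. Among genes never called, Cox5a had group means of 6.32 to 50.2 and Cox8a of 10.9 to 46.8, close to the pseudocount of 23. Cox7a2l was well above it, with group means from 880.1 to 1443. Cox6a1 had group means from 4880.4 to 10466 and ran from 4119 to 13013 in ob/ob females alone. Atp5g1 lay between 43.6 and 129. For 33 probe sets the name carries a suffix letter, and only some of these letters, such as f and s, mark possible cross-hybridization. The described probe sets of Ndufa3, Ndufb2, Ndufb5, Uqcrb, Uqcrc2, Cox4i1, Cox6a1, Cox6b2, Cox6c, Atp5d, Atp5g2 and Atp5md carry the letter f. Those of Ndufa5 and Sdhb carry the letter s. Several members also have near-identical processed copies in the genome, so such signals are uncertain to that degree. Where a brightest probe set was called and the gene had a second one that was not dim, the 2 pointed the same way in 60 of 67 cases and in none were they called in opposite directions. The 7 exceptions in direction were Atp5g2 in ob/ob females, Ndufb2, Cox4i1 and Cox6c in Ay/+ females, Ndufv2 with pioglitazone in diet-induced obese males and with CL316243 against pioglitazone, and Ndufa3 between the sexes. The second probe set was itself called in only 17 of the 67 cases. In ob/ob females no other Atp5d probe set was called with pioglitazone (0.09 to 0.66) or with CL316243 (0.14 to 0.42).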

How the data were processed

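Perigonadal fat of 35 samples in 10 groups was hybridised to MG-U74Av2 arrays. The authors deposited 1 MAS5 intensity per probe set and array (MAS5 is named in the submitters' processing notes); its version is not given in the sources used here. The deposited intensities of 22 earlier arrays were on array-specific scales and those of 13 later arrays shared 1 trimmed mean, so every array was rescaled to a 2% trimmed mean of 250. Signals became log2(signal + 23), 23 being the 25th percentile. A group-means model over all 35 arrays was fitted to 12422 probe sets (12488 without 66 controls) with limma 3.58.1 in R 4.3.3, with trended empirical Bayes and Benjamini-Hochberg adjustment, and checked on simulated data. Tables were made with Python 3.11.15, pandas 2.3.3 and matplotlib 3.10.9. The number of arrays limits the precision.

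Groups and replicate numbers come from the labels, and probe set names from GEO's platform annotation. The members, gene lists and tests were chosen with earlier results of these data known, so no list is independent support. Named were, in each comparison and complex, the 2 called genes with the largest change, called genes against the main direction, and a list of well-known subunits; Uqcr11, Ndufv2, Ndufv3 and Ndufa9 were also named in some comparisons after their values were seen. Same-numbered samples did not deviate together: pair correlations ran from -0.298 to 0.190, and in no comparison did every pair exceed 0.1, so the numbers pair no samples. Alternatives were quantile normalization, a pseudocount of 1, only bright probe sets, only the compared groups, array period or scan day as a block, each period alone, leaving out arrays, and the replicate number as a block.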

Additional observations from a re-analysis of the deposited data

Results flagged for a closer look

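In 34 of 318 sets of values, each of 1 gene or complex in 1 group of 4 arrays, 1 array lay further from the rest than Dixon's test allows at the 95% level. Chance alone does so in about 1 of 20 groups. Values for genes are scaled signals, and those for complexes are medians relative to the mean over all arrays.

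Of these, 20 were for ob/ob female replicate 4. It lay above its group in the median of complex III (0.0023, others -0.82 to -0.70 on the log2 scale), the median of complex V (-0.13, others -0.45 to -0.40 on the log2 scale), the median of all members (-0.18, others -0.50 to -0.46 on the log2 scale), Ndufa3 (3215, others 1532 to 1780.1), Ndufa5 (3591, others 931 to 1114), Ndufa7 (6899, others 3127 to 3727) and Ndufb2 (3425, others 1813 to 2062). It also lay above it in Uqcr10 (3944, others 1998 to 2122), Uqcrb (3723, others 1519 to 1623), Uqcrc2 (4858, others 780.1 to 842), Cox6a1 (13013, others 4119 to 4940.0), Cox7a2 (5573, others 2759 to 3167), Cox7b (2706, others 784 to 942) and Atp5mpl (4083, others 2224 to 2386). It lay below its group in the median of complex II (-0.98, others -0.30 to -0.24 on the log2 scale), Ndufa8 (372, others 842 to 903), Ndufv2 (623, others 1057 to 1118), Sdhc (997, others 1791 to 1847), Sdhd (924, others 1774 to 1943) and Uqcrc1 (781, others 1587 to 1752). Members of complexes I, III, IV and V were among those above, and Ndufa8, Ndufv2, Uqcrc1 and complex II among those below.

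Ay/+ female replicate 1 stood apart in Ndufa5 (3321, others 976 to 1304), Ndufb3 (5783, others 2186 to 2783) and Sdha (280.3, others 72.0 to 94.9). Diet-induced obese pioglitazone replicate 1 stood apart in Ndufs1 (1656, others 841 to 887). Diet-induced obese pioglitazone replicate 3 stood apart in Ndufv3 (2798, others 1762 to 1939), Cox4i1 (403, others 325 to 337) and Cox6b2 (178, others 146 to 151). Lean female replicate 4 stood apart in the median of complex I (0.30, others 0.49 to 0.52 on the log2 scale) and Ndufa7 (10838, others 4001 to 4658). Lean male replicate 1 stood apart in Cox8a (1.89, others 20.6 to 21.3). Lean male replicate 3 stood apart in Cox6b2 (73.6, others 134 to 146). Ob/ob male replicate 1 stood apart in the median of complex V (-0.35, others -0.29 to -0.28 on the log2 scale). Ob/ob male replicate 2 stood apart in Ndufv1 (2690.3, others 2225 to 2268). Ob/ob male replicate 4 stood apart in Uqcrb (2705, others 2278 to 2350.4).

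The ob/ob effect differed between males and females in 12 probe sets, by limma's test of the difference itself (adjusted p under 0.05). The differences, males minus females on the log2 scale, were 1.06 for Ndufa10, 0.96 for Ndufa13, 1.16 for Ndufa3, 1.04 for Ndufb11, 1.10 for Ndufb2, 0.88 for Ndufv2, 1.22 for Uqcrb, 1.33 for Cox5b, 1.54 for Cox7b, 1.26 for Atp5d, 0.93 for Atp5d and 1.12 for Atp5g2.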

How the results depend on the processing

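The counts of called members depended on which arrays shared the fit. They are given without the share of all probe sets called in the same fit. Whether a count moved with the members or with calls over the whole array is therefore not shown. With only later arrays, the count was 10 in ob/ob against lean females, 0 in Ay/+ females, 3 between the obese females, 0 in diet-induced obese males, 0 in ob/ob against diet-induced obese males, 3 with pioglitazone in males, 0 between lean sexes and 1 for the difference of the ob/ob effect; this leaves 1 array in some groups, assumed to vary like the others. With only earlier arrays it was 39, 6 and 3 with pioglitazone in Ay/+ females, ob/ob females and males, 31 with CL316243 and 19 for CL316243 against pioglitazone. With only the compared groups it was 12 in Ay/+ females, 2 between obese females, 31 in ob/ob males, 0 in diet-induced obese males, 3 between obese males, 1, 0 and 1 with pioglitazone in the 3 models, 0 with CL316243 and 23 against pioglitazone. With scan day as a random block it was 15 between obese females, 1 with pioglitazone in ob/ob females, 2 with CL316243, 4 against pioglitazone, 14 between sexes and 3 for the difference. Without the 4 arrays marked earlier it was 63 in ob/ob and 43 in Ay/+ females, 41 between them, 29 in ob/ob males, 2 in diet-induced obese males, 7 between obese males, 41, 12 and 30 with pioglitazone, 33 with CL316243, 21 against pioglitazone, 41 between sexes and 34 for the difference. Quantile normalization gave 0 in diet-induced obese males and 2 between obese males, and only bright probe sets 4 between obese males and 13 with CL316243. The replicate number as a block gave 0 in diet-induced obese males and 1 with pioglitazone in ob/ob females, and moved no other count by over 1.5 times. Leaving out single arrays gave ranges of 45 to 58 members in ob/ob females, 23 to 35 members in Ay/+ females, 14 to 36 between them, 9 to 15 in ob/ob males, 0 to 1 in diet-induced obese males, 0 to 2 between obese males, 9 to 28, 0 to 8 and 2 to 11 with pioglitazone, 0 to 20 with CL316243, 2 to 7 against pioglitazone, 8 to 31 between sexes and 6 to 25 for the difference. Of 2137 alternative values for 123 named gene results, 1591 stayed called in the same direction, 539 lost the call and 7 changed sign, all with only later arrays: Uqcrc2 (0.19) in ob/ob females, Cox4i1 (0.15) and Cox6b2 (0.098) in Ay/+ females, Sdha (-0.73) and Cox8c (0.18) between obese females, Ndufv1 (-0.13) between sexes and Uqcrb (-0.35) in the difference. The cause was not tested. Signal over background limits the 8 dim probe sets.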
